A study of Homo sapiens with 32 samples.

Results

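The 10 genes followed here act in extracellular matrix turnover: the matrix metalloproteinases MMP1, MMP2, MMP3 and MMP14, the aggrecanase-type proteases ADAMTS1, ADAMTS4 and ADAMTS5, and the tissue inhibitors TIMP1, TIMP2 and TIMP3. They were picked out by gene symbol, by a rule with no threshold on a measured value, and make up 10 of 47137 gene entries, of which 18583 had values. All 10 had values, and 7 passed the filter on low counts and were tested. MMP1, MMP3 and ADAMTS4 did not pass it.

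The RNA came from HGrC1, a non-luteinized line of human granulosa cells, exposed to perfluorooctane sulfonate (PFOS), a persistent fluorinated surfactant. Cells of 4 vials, frozen at different times and cultured apart, were each split into 4 cultures: 1 with the vehicle alone (0.05% DMSO), and 1 each with PFOS at 0.01, at 0.1 and at 1 µM, and PFOS was added again at every passage. Libraries were made at 6 and at 12 weeks, which gave 8 groups of n = 4 and 32 libraries. All groups, controls included, grew in medium with serum and a steroid, which the sample labels give as estradiol and the methods of the study as testosterone.

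Matrix metalloproteinases and ADAMTS proteases are zinc enzymes that cut collagens, proteoglycans and other matrix proteins, and TIMPs bind and block their active sites. In the ovary they remodel the follicle wall as the follicle grows and ruptures, and ADAMTS1 cleaves versican, the proteoglycan of the cumulus and basal matrix, around ovulation. MMP14 sits in the cell membrane and, together with TIMP2, activates the secreted MMP2 precursor. TIMP1 binds most secreted metalloproteinases, whereas TIMP3 is held in the matrix and also inhibits ADAMTS4 and ADAMTS5.

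The proximal promoters of 3 of the 10 genes were found among the RefSeq sequences used here (GRCh38.p14), and these 3 are shown. The 3 genes, 1 protease and 2 inhibitors, fell from 6 to 12 weeks in 3 or all 4 of the treatments. TIMP2, which had no entry, fell in all 4 as well. Each sequence is the 250 bases before the annotated start, on the plus strand, at chr14:22836335-22836584 for MMP14, chrX:47582186-47582435 for TIMP1 and chr22:32801455-32801704 for TIMP3. Capitals mark GC boxes (GGGCGG, or CCGCCC on the other strand), the letters bound by Sp1-type factors.
MMP14: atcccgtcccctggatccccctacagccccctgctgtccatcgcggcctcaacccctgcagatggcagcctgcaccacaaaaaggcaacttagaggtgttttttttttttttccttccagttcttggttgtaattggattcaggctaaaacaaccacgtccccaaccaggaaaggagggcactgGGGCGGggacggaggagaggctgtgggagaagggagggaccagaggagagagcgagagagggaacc
TIMP1: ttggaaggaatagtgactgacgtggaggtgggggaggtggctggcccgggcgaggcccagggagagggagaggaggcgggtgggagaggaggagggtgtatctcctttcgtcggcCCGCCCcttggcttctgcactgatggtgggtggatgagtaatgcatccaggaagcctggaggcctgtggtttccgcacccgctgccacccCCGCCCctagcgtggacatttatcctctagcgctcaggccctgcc
TIMP3: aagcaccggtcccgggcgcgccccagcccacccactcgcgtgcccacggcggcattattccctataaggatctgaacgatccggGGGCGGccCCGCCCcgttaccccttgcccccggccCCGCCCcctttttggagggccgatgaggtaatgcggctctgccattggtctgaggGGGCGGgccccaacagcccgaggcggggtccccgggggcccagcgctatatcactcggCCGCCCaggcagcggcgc
MMP14 held 1 GC box, TIMP1 held 2 and TIMP3 held 5, and 42.6% of 35116 promoters of the same length held at least 1. The GC content was 56.8% for MMP14, 64.8% for TIMP1 and 72.4% for TIMP3, against a median of 58.0% over all promoters. No exact match to the AP-1 letters TGANTCA, the cyclic AMP element TGACGTCA or the TATA letters TATAAA lay in these 3 windows. Both strands were searched, and 6.57%, 1.65% and 10.7% of all promoters held one. Variants of these letters were not searched for, so the windows are not shown to lack such sites. MMP1, MMP2, MMP3, ADAMTS1, ADAMTS4, ADAMTS5 and TIMP2 had no entry.

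The depth was even, at 17907057 to 18553350 counts per library. Of 18 granulosa markers, 17 had values and 11 reached a mean of 1 TPM (a transcript level scaled for gene length and depth). GATA4 (74.1 TPM), WT1 (38.4 TPM) and the keratins KRT8 and KRT18 were high, while FOXL2 (0.633 TPM), AMHR2 (0.0369 TPM) and the aromatase gene CYP19A1 (0.000625 TPM) were at or near 0. Markers shared with fibroblasts (COL1A1 579 TPM, COL3A1 580 TPM) and epithelia (KRT19 2050 TPM) were high as well, but not all of their lists were. Of 9 theca and fibroblast markers with values 6 reached a mean of 1 TPM, and DCN (0.145 TPM), PDGFRA (0.253 TPM) and CYP17A1 (0.00906 TPM) did not. Of 6 epithelial markers 4 reached it, with EPCAM at 1.1 TPM, and CDH1 (0.649 TPM) and KRT5 (0.005 TPM) did not. The counts of 6 liver transcripts summed to 0 to 1 in 8 libraries at 6 weeks (control and 0.01 µM), to 72 to 174 in 23 other libraries and to 919 in control vial 3 at 12 weeks. At 6 weeks this sum therefore went with the treatment. In the control it also went with time, at 0 to 1 after 6 weeks and 81 to 919 after 12 weeks. At 0.01 µM the sums were 0 to 1 and 72 to 131 in the same order. At 0.1 µM they were 89 to 141 and 95 to 155, and at 1 µM 88 to 115 and 92 to 174. The part of these transcripts in the changes with time, or in differences of a PFOS effect between times, was not tested. Without control vial 3 at 12 weeks, the genes called in edgeR fell in number from 136 to 26 at 0.1 µM. At 1 µM they fell from 28 to 14. Several calls that use this library are therefore also given without it. The changes with time by list, and calls in alternative fits, are not.

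The inhibitors TIMP1 and TIMP2 were the most abundant of the 10 transcripts. Over 32 libraries the mean level was 273 TPM for TIMP1 and 195 TPM for TIMP2, at percentiles 97.2 and 96.1 of 17452 genes with counts. ADAMTS1 (85.9 TPM), MMP14 (71.0 TPM) and MMP2 (70.5 TPM) followed, between percentiles 88.8 and 90.8, and then ADAMTS5 (9.74 TPM) and TIMP3 (4.91 TPM). TIMP1 lay above TIMP2, and TIMP2 above every protease, without overlap in each of the 8 groups. ADAMTS5 lay above TIMP3 in the same way. ADAMTS1 and MMP14 overlapped in all 4 groups at 6 weeks. At 12 weeks it was MMP2 and MMP14 that overlapped in all 4 groups, and ADAMTS1 lay above both without overlap in the control and at 1 µM.

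MMP1, the interstitial collagenase (gene ID 4312, chr11:102789919-102798160, minus strand), had 17 counts in all, 0 to 3 per library, and was found in 10 of 32 libraries. Of the 17 counts, 7 were in the 0.1 µM libraries at 6 weeks, and the control, 0.01 µM and 1 µM libraries at 12 weeks held 0. MMP3 or stromelysin-1 (gene ID 4314, chr11:102835801-102843609, minus strand), which lies 37640 bp from MMP1, had 2 counts in all, both at 0.1 µM and 6 weeks. ADAMTS4 or aggrecanase-1 (gene ID 9507, chr1:161184302-161199054, minus strand) had 1 to 12 counts per library and 152 in all. In 18 exact two-sided permutation tests of log2(CPM + 1) for these 3 genes, PFOS against control, the lowest p was 0.257 and 0 were under 0.05. Untied values in 4 against 4 libraries allow 0.0286 at the least. Groups that both held 0 counts could not give a low p. This held for MMP3 in all PFOS comparisons but 0.1 µM at 6 weeks, where p was 0.429 (exact permutation test) and could go no lower. It also held for MMP1 at 0.01 and 1 µM after 12 weeks. The same 3 genes gave 0 of 12 such tests with p under 0.05 between 6 and 12 weeks (lowest p = 0.171, exact permutation test) and 0 of 6 between 1 and 0.1 µM. Some of these also compared groups without a count, so the tests do not show that MMP1 and MMP3 stayed the same. A library without a count allows up to 3 counts, so a fall in MMP1 or MMP3 could not be seen at this depth, and no library held more than 3 counts of MMP1 or 1 count of MMP3.

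The first question was whether PFOS changed these genes against the control of the same time. Among the 7 genes tested, ADAMTS1 was lower at 0.1 µM after 12 weeks, where it fell by 18.9% or 0.30 on the log2 scale. It was the 1 gene of the 7 called there, where 1.07% of 12742 genes were called and 0.542% were called lower. None of the 7 reached the 2-fold change that the study required of a differentially expressed gene. Levels by library are in CPM, counts scaled for depth with TMM factors. Adjusted p values are from edgeR's quasi-likelihood test with Benjamini-Hochberg adjustment over all genes tested. In the control, ADAMTS1 held 262 to 264 CPM at 6 weeks and 312 to 342 CPM at 12 weeks. At 0.1 µM it held 251 to 263 CPM at 6 weeks and 263 to 276 CPM at 12 weeks, so the control rose.

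At 6 weeks 0 of the 7 genes passed in edgeR at each concentration, where 0%, 4.24% and 0.28% of 12836 genes were called at 0.01, 0.1 and 1 µM. At an unadjusted p under 0.05 there were 2, 1 and 2 of the 7, and DESeq2 called 0 each time. Groups of 4 libraries did not overlap for 0, 0 and 1 of the 7, beside 3.93%, 12.2% and 6.85% of all genes. The median log2 fold change of the 7 was 0.0047, 0.0019 and 0.044, beside 0.0021, 0.00042 and −0.0011 over all genes. At 12 weeks 0, 1 and 0 of the 7 passed in edgeR, where 0%, 1.07% and 0.22% of all genes were called, and 2, 2 and 1 had an unadjusted p under 0.05. DESeq2 called 0, 1 and 1. The medians at 12 weeks were −0.126, −0.094 and −0.058, beside 0.0023, −0.0047 and −0.0041 over all genes. The 3 comparisons of a time share the control libraries and are not independent of each other.

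**Figure D1:**
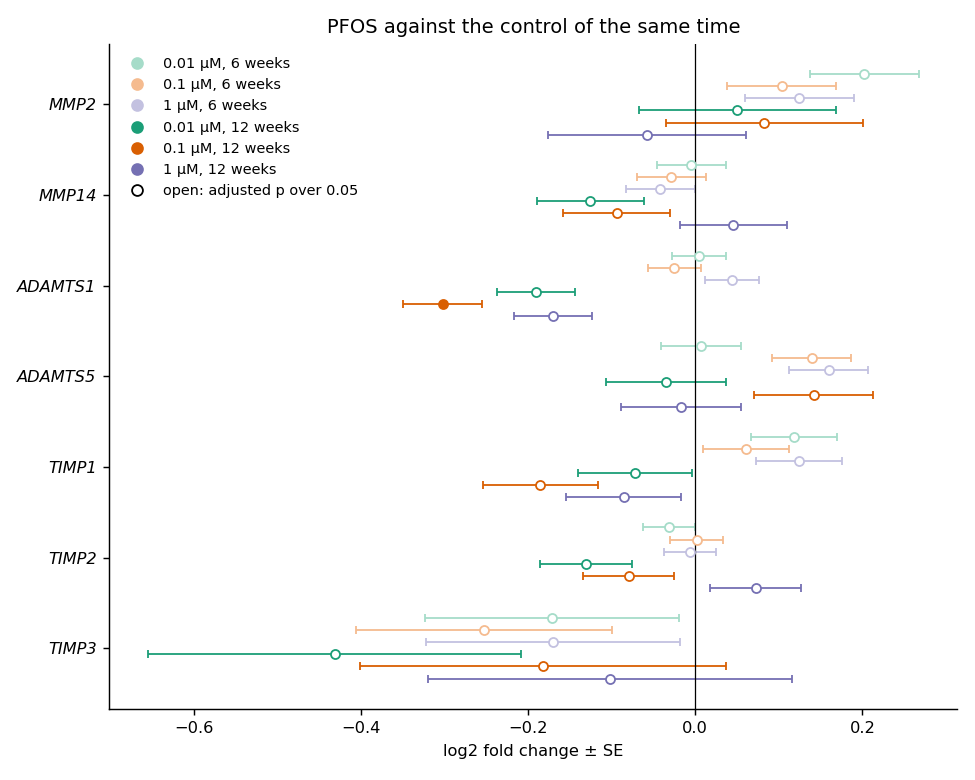
Log2 fold change of PFOS against the control of the same time (x axis) for the 7 genes tested, with bars of 1 SE and filled points where the adjusted p was at or under 0.05. The only filled point is ADAMTS1 at 0.1 µM and 12 weeks, at −0.30.

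ADAMTS1 (gene ID 9510, chr21:26835755-26845409, minus strand) encodes the secreted versicanase of the ovulating follicle. At 12 weeks it had 342, 328, 338 and 312 CPM in the control libraries of vials 1 to 4. It had 311, 287, 269.5 and 293 CPM at 0.01 µM, and 276, 264, 270.1 and 263 CPM at 0.1 µM. At 1 µM it had 299, 296, 294 and 288 CPM. Every PFOS library lay below every control library, so ADAMTS1 did not overlap with the control at any concentration. The lowest mean was at the middle concentration.

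The log2 fold change of ADAMTS1 at 12 weeks was −0.19 (SE 0.0468, adjusted p = 0.472) at 0.01 µM in edgeR. It was −0.30 (SE 0.0469, adjusted p = 0.0027) at 0.1 µM and −0.17 (SE 0.0468, adjusted p = 0.167) at 1 µM in edgeR. Groups that did not overlap were found for 2.81%, 8.33% and 6.61% of all genes, in the same order. The call at 0.1 µM was kept without control vial 3 (−0.29, adjusted p = 0.0182 in edgeR) and lost when vial 3 was left out of all groups (−0.29, adjusted p = 0.0776 in edgeR). At 1 µM the change passed in DESeq2 (−0.17, adjusted p = 0.0272) and in an edgeR fit of all 32 libraries (adjusted p = 0.0206).

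At 6 weeks ADAMTS1 passed at 0 of 3 concentrations. The control libraries held 263, 262, 263 and 264 CPM, with a coefficient of variation of 0.335%, the lowest in any group of the 7 genes. The PFOS libraries held 251 to 282 CPM, and the log2 fold changes were 0.0047, −0.02 and 0.04 at 0.01, 0.1 and 1 µM (adjusted p = 0.981, 0.709 and 0.58 in edgeR). The difference between the effect at 12 and at 6 weeks was −0.28 at 0.1 µM (SE 0.0545, adjusted p = 0.0194 in edgeR, where 0.208% of 12988 genes were called). It was −0.19 at 0.01 µM (adjusted p = 0.472 in edgeR, 0% called) and −0.21 at 1 µM (adjusted p = 0.108 in edgeR, 0.123% called). The call at 0.1 µM was kept without control vial 3 at 12 weeks (−0.27, adjusted p = 0.0341 in edgeR). It was lost without vial 2, 3 or 4 (adjusted p = 0.0792, 0.109 and 0.17 in edgeR), and the difference at 1 µM passed in DESeq2 (adjusted p = 0.00769).

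**Figure D2:**
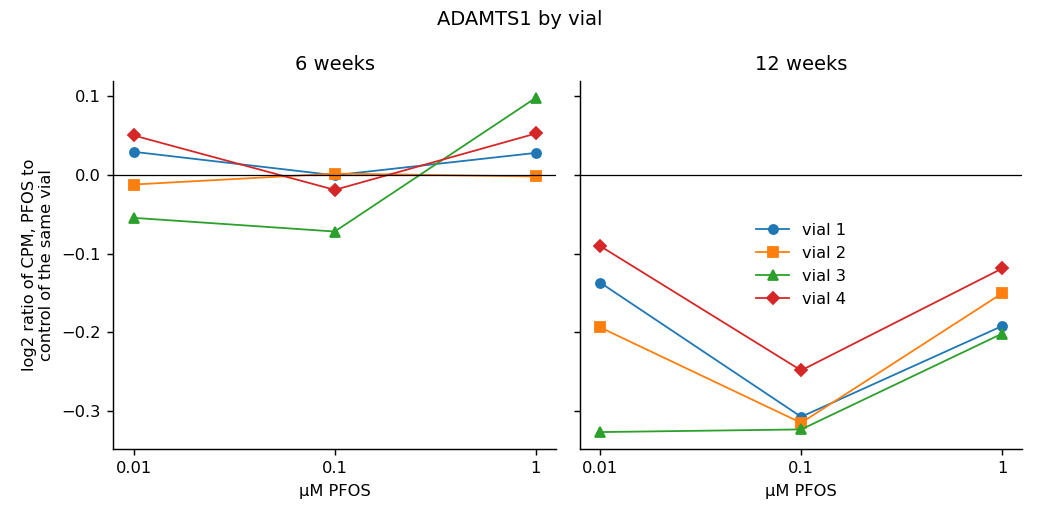
ADAMTS1 by vial: log2 ratio of CPM in a PFOS culture to the control culture of the same vial (y axis) at 0.01, 0.1 and 1 µM (x axis), at 6 weeks on the left and 12 weeks on the right, with 1 line per vial. At 6 weeks the ratios lie between −0.072 and 0.098, and at 12 weeks all 12 lie below 0, between −0.33 and −0.090.

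The other proteases did not pass in any PFOS comparison. MMP2 or gelatinase A (gene ID 4313, chr16:55478830-55506691, plus strand) had 143, 157, 125 and 135 CPM in the controls at 6 weeks and 154, 164, 157 and 171 CPM at 0.01 µM, where 2 of the 4 PFOS libraries lay within the control range. Its log2 fold change there was 0.20 (SE 0.0653, adjusted p = 0.453 in edgeR), higher in 4 of 4 vials. MMP14, the membrane-type protease (gene ID 4323, chr14:22836585-22847758, plus strand), had log2 fold changes of −0.0045, −0.03 and −0.04 at 6 weeks and of −0.13, −0.09 and 0.05 at 12 weeks, at 0.01, 0.1 and 1 µM.

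ADAMTS5 or aggrecanase-2 (gene ID 11096, chr21:26917922-26967088, minus strand) lies 72512 bp from ADAMTS1. At 6 weeks it had 53.7, 49.6, 50.6 and 52.1 CPM in control libraries, against 56, 53.9, 62 and 58.2 CPM at 1 µM, so that the groups did not overlap, as in 6.85% of all genes. The log2 fold change was 0.16 (SE 0.0473, adjusted p = 0.134 in edgeR), and at 0.1 µM it was 0.14 (adjusted p = 0.0877 in edgeR), both higher in 4 of 4 vials. The libraries at these concentrations were also those with 88 to 141 counts of liver transcripts at 6 weeks, whose part in the result was not tested. Its counts were fractional in 96.9% of libraries, as RSEM gives where it divides reads between entries, and LOC124905050 overlaps it on the same strand with a mean of 5.11 counts.

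The 3 inhibitors did not pass either, in any of the 6 PFOS comparisons. TIMP1 (gene ID 7076, chrX:47582436-47586789, plus strand) had log2 fold changes of 0.12, 0.06 and 0.12 at 6 weeks and of −0.07, −0.19 and −0.09 at 12 weeks, at 0.01, 0.1 and 1 µM. Its lowest adjusted p in edgeR was 0.206, at 0.1 µM and 12 weeks. TIMP2 (gene ID 7077, chr17:78852977-78925387, minus strand) had log2 fold changes of −0.03, 0.0019 and −0.0062 at 6 weeks and of −0.13, −0.08 and 0.07 at 12 weeks.

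TIMP3 (gene ID 7078, chr22:32801705-32863041, plus strand) varied most between replicates, with a coefficient of variation of 11.4 to 33.1% within groups, against 0.335 to 5.92% for ADAMTS1. At 6 weeks it had 22.5, 18.7, 19.5 and 17.3 CPM in control libraries, against 17.9, 18.1, 15.4 and 14.2 CPM at 0.1 µM. Vials 1 and 2 lay above vials 3 and 4 in 5 of 8 groups, an order noticed after the values were seen. TIMP3 overlaps SYN3 on the opposite strand, which had a mean of 8.92 counts, and although the libraries kept strand, whether the counting used it is not given in the sources used here. The log2 fold change at 0.1 µM was −0.25 (SE 0.153, adjusted p = 0.38 in edgeR). With the vial as a replicate block it was −0.25 as well and passed (SE 0.0712, adjusted p = 0.0356 in edgeR). At 0.01 µM and 12 weeks it was −0.43 (SE 0.223, adjusted p = 0.631 in edgeR), lower in 4 of 4 vials.

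Between 1 and 0.1 µM, 0 of 7 passed in edgeR at 6 weeks (0.0857% of all genes called, and 0 of the 7 apart beside 4.32%) and 0 of 7 at 12 weeks (0% called), with 1 and 4 at an unadjusted p under 0.05 and 0 in DESeq2. At 12 weeks the groups at 1 and 0.1 µM did not overlap for MMP14 (146 against 132 CPM), ADAMTS1 (294 against 268 CPM) and TIMP2 (415 against 373 CPM), each higher at 1 µM in 4 of 4 vials. Of all genes, 6.1% did not overlap in this comparison, and the adjusted p of these 3 in edgeR was 0.622 to 0.629.

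The second question was how the genes changed between 6 and 12 weeks within a treatment. MMP14, TIMP2 and TIMP3 fell and ADAMTS5 rose in the control and in all 3 PFOS groups. TIMP1 fell in the 3 PFOS groups, ADAMTS1 rose in the control and at 0.01 and 1 µM, and MMP2 did not pass in any of the 4. Of 7 genes, 5 passed in the control, 6 at 0.01 µM, 5 at 0.1 µM and 6 at 1 µM, where 36.6%, 42.7%, 40.3% and 30.1% of all 12988 genes passed in edgeR. The labels give no dates of extraction or sequencing, so that time in culture and any batch that went with it cannot be told apart.

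MMP14 had 194, 186, 186 and 186 CPM in the control at 6 weeks and 127, 137, 156 and 143 CPM at 12 weeks. The 16 libraries at 12 weeks lay below the 16 at 6 weeks without overlap. The log2 fold changes were −0.42, −0.53, −0.48 and −0.33 in the control and at 0.01, 0.1 and 1 µM (SE 0.0556 to 0.0559), and the change in the control was −0.47 without its vial 3 at 12 weeks. Without that library the control changes of TIMP2 (−0.36), TIMP3 (−0.76), ADAMTS1 (0.32) and ADAMTS5 (0.36) also passed in edgeR. The 6 and 12 week groups did not overlap for 5, 5, 6 and 6 of the 7 genes, beside 31.3%, 33.2%, 39.7% and 30.4% of all genes, in the same order.

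TIMP2, the partner of MMP14 in the activation of MMP2, had 485, 486, 496 and 491 CPM in the control at 6 weeks and 380.3, 372, 429 and 393 CPM at 12 weeks. All libraries at 12 weeks again lay below all at 6 weeks. The log2 fold changes were −0.31, −0.41, −0.39 and −0.23 in the same order, and the largest adjusted p of these in edgeR was 9.31e-05. TIMP2 per MMP14, as a ratio of TPM, was 2.64 ± 0.0790 (SD, n = 4) in the control at 6 weeks and 2.85 ± 0.135 (SD, n = 4) at 12 weeks.

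TIMP3 had 13.2, 11.8, 12.2 and 9.5 CPM in the control at 12 weeks, below the 17.3 to 22.5 CPM at 6 weeks, and 11.6, 10.7, 6.48 and 5.97 CPM at 0.01 µM. Its fall was the largest among the 7 genes in each treatment, with log2 fold changes of −0.74, −0.995, −0.67 and −0.67 (SE 0.191 to 0.202). Without vial 3 the adjusted p in edgeR rose to 0.0685 at 0.1 µM and 0.0674 at 1 µM.

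TIMP1 had 97.5, 92.4, 109 and 102 CPM at 0.01 µM and 6 weeks and 78.8, 82.1, 89.3 and 86.9 CPM at 12 weeks. It fell by 0.25, 0.31 and 0.27 on the log2 scale at 0.01, 0.1 and 1 µM, with adjusted p values of 0.00201, 0.00024 and 0.00149 in edgeR. In the control the log2 fold change was −0.06 (adjusted p = 0.457 in edgeR), where vial 3 at 12 weeks, the library with 919 counts of liver transcripts, held 106 CPM and the other 3 held 78.8 to 85.3 CPM. Without that library the change was −0.16 (adjusted p = 0.0199 in edgeR), and without vial 2 in all groups it was 0.010 (adjusted p = 0.931 in edgeR). The difference of the TIMP1 effect between times did not pass at any concentration (lowest adjusted p = 0.197 in edgeR), so the PFOS groups were not shown to differ from the control in this fall.

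The aggrecanase-type genes that were tested, ADAMTS1 and ADAMTS5, were higher at 12 weeks. ADAMTS1 rose from 263 ± 0.882 to 330.2 ± 13.2 CPM (SD, n = 4) in the control, by 0.33 on the log2 scale (SE 0.0385, adjusted p = 3.24e-08 in edgeR), and in 4 of 4 vials. It rose by 0.14 at 0.01 µM and 0.12 at 1 µM, and the value at 0.1 µM was 0.05 (adjusted p = 0.307 in edgeR). At 1 µM the call was lost without vial 1 (adjusted p = 0.0999 in edgeR) and without vial 2 (0.175).

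ADAMTS5 had 64.2, 76.4, 63.2 and 57.2 CPM in the control at 12 weeks, above the 49.6 to 53.7 CPM at 6 weeks. The log2 fold changes were 0.34, 0.30, 0.34 and 0.17 in the control and at 0.01, 0.1 and 1 µM. At 1 µM the adjusted p was 0.0406 in edgeR, and leaving out any 1 of the 4 vials raised it to between 0.0816 and 0.12. MMP2 ranged from 125 to 171 CPM at 6 weeks and from 126 to 187 CPM at 12 weeks, and its log2 fold changes were between −0.09 and 0.09.

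The median log2 fold change of the 7 genes from 6 to 12 weeks was −0.064, −0.249, −0.309 and −0.231 in the control and at 0.01, 0.1 and 1 µM, beside 0.004, 0.01, 0.0085 and 0.0051 over all genes. The summed level of the 3 TIMPs was 518 ± 18.1 TPM (SD, n = 4) in the control at 6 weeks and 435 ± 42.1 TPM (SD, n = 4) at 12 weeks, with a highest control library of 496 TPM. The summed level of the 7 proteases was 243 ± 6.48 and 237 ± 12.6 TPM (SD, n = 4). Proteases per TIMP, as a ratio of summed TPM, was 0.469 ± 0.0137 and 0.550 ± 0.0635 (SD, n = 4) in the control, and 0.527 to 0.560 in the means of the PFOS groups at 12 weeks. These sums are of transcripts, not of protein or activity. In bulk RNA, fewer cells that express a gene and less RNA per cell cannot be told apart.

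Markers of other cell types were read beside the change with time. The 5 endothelial markers summed to 3.8 to 5.21 TPM at 6 weeks and 1.74 to 3.08 TPM at 12 weeks, with means of 1.79 TPM for KDR, 1.26 TPM for TEK and 0.122, 0.1 and 0.154 TPM for PECAM1, VWF and CDH5. Of 6 immune markers, 5 had values, which summed to 31.1 to 40.5 and 17.5 to 31.6 TPM, with means of 21.4 TPM for CD68, 7.67 TPM for CD14, 0.372 TPM for LYZ, 0.09 TPM for PTPRC and 0 for CD3E. The 10 fibroblast and theca markers, 9 with values, summed to 1150 to 1450 and 1040 to 1400 TPM, with CYP17A1 at 0.00906 TPM. The 6 epithelial markers summed to 1770 to 2370 and 1730 to 2470 TPM, and the 10 hepatocyte markers to 10.5 to 27.4 and 14.7 to 65.9 TPM. The part of other cells in the changes of the protease and inhibitor genes was not tested.

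The genes most like each member were taken by Pearson's r of the deviations of log2 CPM from the group mean over 32 libraries. The points share vials and groups, and r is given as a description. They were FBLN1 (r = 0.85), AGAP1 and EEIG1 for MMP2, and ADAMTSL3 (r = 0.776), ANPEP and CACNA2D1 for MMP14. For ADAMTS1 they were NOMO3 (r = 0.769), LPAR3 and NBPF10, of which NOMO3 and NBPF10 have near-identical copies, and for ADAMTS5 they were RNF145 (r = 0.774), WEE1 and THRA. For TIMP1 they were CA12 (r = 0.843), C1S and SAA1, for TIMP2 they were PPARD (r = 0.795), CHPF2 and TNFRSF21, and for TIMP3 they were PREX1 (r = 0.849), PTGFRN and COL6A3. Between members the largest r was 0.539, for MMP14 with TIMP2, and the lowest was −0.36, for ADAMTS5 with TIMP2.

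Beside these 10 genes, 97 others of the pathway were read in 7 lists: other MMPs, other ADAMTS and ADAMTS-like genes, ADAM sheddases, other inhibitors, activators and partners, matrix substrates and AP-1 subunits. At 6 weeks 69 were tested, and 0, 2 and 0 passed in edgeR at 0.01, 0.1 and 1 µM, with 12, 14 and 7 at an unadjusted p under 0.05 and 0, 6 and 2 in DESeq2. The share called at 0.1 µM was 2.9%, beside 4.24% of all genes. The 2 were the basement membrane collagens COL4A1 (log2 fold change −0.18, adjusted p = 0.0207) and COL4A2 (−0.13, adjusted p = 0.0328), 2 of the 15 matrix substrates tested. Without vial 1, 3 or 4 neither passed (adjusted p = 0.0709 to 0.173 for COL4A1 and 0.102 to 0.227 for COL4A2 in edgeR), and without vial 2 COL4A1 passed. At 12 weeks 65 were tested, and 0, 4 and 1 passed in edgeR, with 17, 13 and 12 at an unadjusted p under 0.05 and 0, 7 and 1 in DESeq2. The shares called were 0%, 6.15% and 1.54%, beside 0%, 1.07% and 0.22% of all genes. Of the 4 called at 0.1 µM, 3 were AP-1 subunits, which are transcription factors, and 1 was a sheddase. The lists were chosen with earlier results of these data known, so the higher share is not evidence about matrix turnover genes.

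At 12 weeks and 0.1 µM, 3 of 7 AP-1 subunits were lower than in the control, with a median of −0.42 over the list. They were FOSB (log2 fold change −0.91, adjusted p = 0.0383 in edgeR), JUN (−0.59, adjusted p = 0.0064) and FOSL2 (−0.26, adjusted p = 0.024). Of all 12742 genes, 0.542% were called lower in this comparison. Without control vial 3, JUN passed (−0.61, adjusted p = 0.0243 in edgeR) and FOSB (−0.86, adjusted p = 0.146) and FOSL2 (−0.20, adjusted p = 0.144) did not. With vial 3 left out of all groups, where 4 of all genes were called, none of the 3 passed (adjusted p = 0.0845 for JUN and 0.501 for FOSB and FOSL2 in edgeR). Without vial 4, where 11 of all genes were called, none passed either (adjusted p = 0.068 for JUN, 0.0562 for FOSB and 0.203 for FOSL2 in edgeR). FOSB was also lost without vial 2 (adjusted p = 0.17 in edgeR). In an edgeR fit of the 8 libraries of the 2 groups, JUN passed (adjusted p = 0.00857) and FOSB (0.136) and FOSL2 (0.0775) did not. AP-1 is a transcription factor dimer known to act on several MMP promoters. JUN had 170.4 ± 19.3 CPM in control libraries, against 114 ± 7.64 CPM at 0.1 µM (SD, n = 4). At 6 weeks JUN had 111 ± 8.33 CPM in control libraries and 127 ± 4.28 CPM at 0.1 µM (SD, n = 4). From 6 to 12 weeks the mean of FOSB went from 276 to 523 CPM in the control and from 276 to 279 CPM at 0.1 µM. The mean of FOSL2 went down in both, from 212 to 200 CPM and from 199 to 168 CPM. ADAM33, a membrane protease, rose at 0.1 µM (0.45, adjusted p = 0.0111 in edgeR) and 1 µM (0.49, adjusted p = 0.0104), from 29.4 ± 3.02 CPM to 40.3 ± 1.60 and 41.3 ± 0.526 CPM (SD, n = 4). Without control vial 3 it passed at 1 µM (0.42, adjusted p = 0.0441 in edgeR) and not at 0.1 µM (0.38, adjusted p = 0.053), and it did not pass at either concentration without vial 2 (adjusted p = 0.0765 and 0.103 in edgeR) or vial 4 (0.0927 and 0.0955). Without vial 3 in all groups it passed at 1 µM alone (adjusted p = 0.0331, against 0.0976 at 0.1 µM). The difference of the effect at 0.1 µM between the times passed for 1 of the 69 in edgeR (1.45%, beside 0.208% of all 12988 genes). It was JUN (−0.78, adjusted p = 0.00244), also without control vial 3 (−0.81, adjusted p = 0.00199), and not without vial 4 (adjusted p = 0.161). DESeq2 called 2 of the 69 at 0.1 µM and 2 at 1 µM, where edgeR called 0.

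The most abundant genes of the lists were BSG (765 TPM), PLAU (76.7 TPM) and PLAUR (75.7 TPM) among activators and partners, ADAM9 (276 TPM), ADAM15 (127 TPM) and ADAM10 (26.7 TPM) among sheddases, and MMP15 (37.2 TPM), MMP23B (24.4 TPM) and MMP24 (20.2 TPM) among other MMPs. Of the other ADAMTS genes they were ADAMTSL4 (37.8 TPM), ADAMTS12 (35.2 TPM) and ADAMTS15 (24.4 TPM), and of the inhibitors RECK (24.3 TPM), TFPI2 (5.18 TPM) and SPOCK1 (4.79 TPM). The leading AP-1 subunits were FOS (425 TPM), JUNB (379 TPM) and JUND (166 TPM), and the leading substrates were COL3A1, COL1A1 and COL4A2 (346 TPM).

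From 6 to 12 weeks 36, 39, 35 and 33 of the 69 passed in the control and at 0.01, 0.1 and 1 µM, or 52.2%, 56.5%, 50.7% and 47.8%, beside 36.6%, 42.7%, 40.3% and 30.1% of all genes. Of those that passed, 25, 31, 28 and 22 were lower, and without control vial 3 at 12 weeks 38 passed in the control, 28 of them lower. The counts by list that follow are each of 1 direction, in the same order of treatments. Of all 12988 genes, 2511, 2766, 2671 and 2065 were called lower in edgeR. Called higher were 2245, 2784, 2564 and 1838. The membrane-anchored inhibitor RECK and the proteoglycan SPOCK1 fell in all 4 treatments, and 3 of 5 inhibitors fell at 1 µM. Of 15 matrix substrates 9, 10, 8 and 6 fell, VCAN, COL1A2, FN1, LAMC1, NID1 and PTX3 in each, while BGN rose in each. Of 17 other ADAMTS genes 5, 5, 6 and 5 fell and ADAMTS2, a procollagen peptidase, rose in each. Of the 9 activators and partners 5, 6, 5 and 5 fell and BSG rose in each, and of the 9 sheddases 3, 5, 4 and 2 fell, ADAM10 and ADAM12 in each, while ADAM33 rose in each. MMP16 rose in each treatment, and of the 7 other MMPs 1, 2, 2 and 0 fell. Of 7 AP-1 subunits 3, 3, 0 and 2 rose. These were FOS and FOSB in the control and at 0.01 and 1 µM, and JUN in the control and at 0.01 µM. FOSL2 fell at 0.01, 0.1 and 1 µM.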

How the data were processed

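RNA of 32 HGrC1 libraries (8 groups, n = 4) was sequenced from poly(A)-selected, stranded libraries on DNBSEQ. The authors deposited expected counts and TPM per gene and library; per the submitters' processing notes the tools were HISAT2 2.0.4, Bowtie2 2.2.5 and RSEM 1.2.8 with GRCh38.p14. FPKM and normalized counts were not used. The 7.68% of count values that were not whole were rounded. Genes kept by filterByExpr were tested with edgeR 4.0.16 (TMM, robust quasi-likelihood) in R 4.3.3, with limma 3.58.1 loaded by edgeR, in 1 fit per time for PFOS and 1 fit of 32 libraries for time and for differences between times, with Benjamini-Hochberg adjustment over all genes tested and a threshold of 0.05. The SE is the log2 fold change divided by the square root of F. Genes under the filter were compared with exact two-sided permutation tests. Python 3.11.15, numpy 2.4.6, pandas 2.3.3 and scipy 1.17.1 were used.

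The authors' methods name DESeq2, which was run as an alternative (version 1.42.0). On simulated data (0.1 µM at 6 weeks, 12795 genes) 186 of 200 genes changed 2-fold were recovered, with 12 false calls. No smaller change and no vial effect was simulated, so this rate does not apply to the smaller changes reported here. The labels call cultures of 4 vials the biological replicates and number the replicates, and samples of the same number were taken as paired by vial. Deviations from the group mean correlated within vials by 0.0496 to 0.0834 at 6 weeks and −0.0929 to 0.153 at 12 weeks on average. The vial was not a term of the fits unless a block is named. Of 48 replicate pairs, 0 were identical. All groups come from 1 cell line, so p-values measure the spread between its vials.

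The members and lists (pathway genes, and markers of granulosa, hepatocyte, theca and fibroblast, epithelial, endothelial and immune cells) were chosen with earlier results of these data known. Named were all 10 members, every list gene called in a PFOS comparison, the 3 most abundant of each list and the 3 genes most like each tested member. A planned test of summed inhibitor and protease levels was not run, and the sums are given as values. Counting error alone sets the limit of 3 counts.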

Additional observations from a re-analysis of the deposited data

Results flagged for a closer look

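In a group of 4 libraries, 1 library far from the other 3 was looked for in the CPM of the 7 tested genes. Of 56 groups, 3 held such a library, and chance gives about 1 in 20. MMP14 was highest in control vial 1 at 6 weeks, with 194 CPM where the other 3 rounded to 186 CPM. MMP14 was also highest in vial 1 at 0.01 µM and 6 weeks, with 203 CPM against 180.1 to 184 CPM. TIMP2 was highest in that same library, with 493 CPM against 471 to 475 CPM.

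The effect of 0.1 µM PFOS on ADAMTS1 differed between the times, by −0.277 on the log2 scale (adjusted p = 0.0194, edgeR's quasi-likelihood test of the difference). All 4 vials were lower than their control at 12 weeks. The call of the difference was lost without vial 2, 3 or 4, with an adjusted p of up to 0.17 in edgeR. At 6 weeks the liver transcripts summed to 0 to 1 counts in the control and 89 to 141 at 0.1 µM, and their part was not tested.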

How the results depend on the processing

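Under the alternatives, 157 counts and summary values stayed within 1.5 times the reported value and 8 did not. Of the values of single genes, 266 kept their direction and their side of the threshold, 12 lost the call, 6 gained it and 1 reversed. With the replicate block the members called at 0.1 µM and 6 weeks were 1 in place of 0 (TIMP3), and the block changed no other count of members. At 1 µM and 12 weeks, DESeq2 and the edgeR fit of all 32 libraries each called 1 in place of 0 (ADAMTS1), and DESeq2 called 1 in place of 0 for the difference between times at 1 µM. Leaving out 1 vial gave 0 to 1 members called at 0.1 µM and 12 weeks (0 without vial 3) and 0 to 1 for the difference at 0.1 µM (0 without vial 2, 3 or 4). TIMP1 in the control from 6 to 12 weeks reversed to 0.010 without vial 2, and was called without vial 3 (−0.18, adjusted p = 0.0287 in edgeR). The cause was not tested. ADAMTS1 at 0.1 µM and 12 weeks was −0.31 to −0.29 over 12 alternatives, with adjusted p values of 1.61e-08 to 0.0776. Over all genes, 544 calls at 0.1 µM and 6 weeks became 22 without vial 3 and 739 with the block, and 136 at 12 weeks became 4 without vial 3 and 540 in the fit of all 32 libraries. At 1 µM 36 calls at 6 weeks became 5 to 178 and 28 at 12 weeks became 8 to 136. The difference between times had 27 calls (1 to 137) at 0.1 µM and 16 (1 to 76) at 1 µM. Calls between 1 and 0.1 µM at 6 weeks were 11 (1 to 25).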
